A study of Mus musculus with 7 samples.

Results

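The genes described here encode, in the nucleus, the subunits of respiratory complexes II, III, IV and V. They were taken by name from the gene tables: the genes Sdha, Sdhb, Sdhc and Sdhd, every gene whose name starts with Uqcr, Cyc1, every name starting with Cox4, Cox5, Cox6, Cox7 or Cox8, and every name starting with Atp5. This gave 48 of the 23366 genes listed, with 4 for complex II, 9 for complex III, 18 for complex IV and 17 for complex V. RNA was measured by sequencing in livers of C57BL/6 mice, an inbred laboratory strain, at 21 months of age (3 samples) and at 3 months of age (4 samples), and the comparison asks which transcripts differ between the ages. No treatment or genotype other than the strain is given for either age. Both ages share the same tissue, strain and library method. Whether each sample is a separate animal is not in the labels. The p-values therefore reflect sample-to-sample spread, which could be of technical origin. Where livers are counted below, samples are meant, which may share an animal.

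The libraries held 10458583, 6882935 and 8235677 estimated counts in 21-month replicates 1, 2 and 3, against 5932697, 11143125, 4724687 and 6498243 in 3-month replicates 1 to 4. Levels per library are given as CPM, a gene's share of a library's counts after scaling between libraries, times 1e+06,, and levels compared between genes as TPM, which also divides by transcript length. The 6 hepatocyte markers summed to 72312 to 82301 TPM in 21-month livers and to 50954 to 73510 TPM in 3-month livers; of the 6, Alb (albumin), which makes up most of the sum, was called higher, Apoa1 was called lower and 4 were not called. Of the 4 markers of stellate cells, the vitamin A storing cells of liver, Dcn was called higher (115 ± 9.08 TPM at 21 months and 65.1 ± 10.5 TPM at 3 months) and Lrat, Des and Col1a1 were not called. The sum of the 4, which is mostly Dcn, was 121 to 146 TPM at 21 months and 64.2 to 91.2 TPM at 3 months; its part in the results below was not tested. The sums overlapped between ages for macrophages (91.2 to 310 TPM at 21 months, 139 to 274 TPM at 3 months), endothelial cells (16.7 to 41.7 and 22.7 to 49.7 TPM) and red cells (3749 to 4606 and 2117 to 5716 TPM). Of the 4 endothelial markers, Lyve1 was called lower (1.61 ± 0.577 TPM at 21 months and 3.93 ± 2.42 TPM at 3 months). Pecam1, Stab2 and Kdr were not called, nor was any macrophage or red cell marker. In whole tissue, fewer cells of a type and less RNA per cell cannot be told apart.

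The respiratory chain passes electrons from nutrients to oxygen in the inner mitochondrial membrane. Complex II, succinate dehydrogenase, is also an enzyme of the citric acid cycle and feeds electrons to ubiquinone; complex III passes them on to cytochrome c, and complex IV, cytochrome c oxidase, gives them to oxygen. Complexes III and IV pump protons, and complex V, the ATP synthase, lets protons flow back through a membrane ring (Fo) that turns a catalytic head (F1) in which ATP is made. Complexes III, IV and V also hold subunits encoded in mitochondrial DNA, whereas complex II is encoded wholly in the nucleus. Liver is rich in mitochondria and uses this ATP for glucose, urea and lipid synthesis.

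The promoters of many such genes are known to carry sites for NRF1, GABP (also called NRF-2) and YY1, which control nuclear genes of respiration, and for NF-Y, which binds CCAAT. RefSeq promoters (build GRCm38.p6, from 250 bases before to 50 bases after the start of the gene, 300 bases) were found for 37 of the 48 genes; the gene tables themselves carry no coordinates. The promoters of the 3 genes that passed the test between ages are printed, with that of Cox6a1, the highest gene of complex IV, and that of Cox7a1, the muscle form of subunit 7A, which was barely detected. All read 5′ to 3′ on the gene's strand, and capitals mark matches on either strand. The letters searched were GCATGCGC for NRF1 and CCGGAAG for GABP, which reads CTTCCGG from the opposite strand. For YY1 they were AAGATGG. For NF-Y they were CCAAT, which reads ATTGG from the opposite strand. Uqcrh lies at chr4:116075021-116075320 on the minus strand, Cox8a at chr19:7217567-7217866 (minus), Atp5b at chr10:128083057-128083356 (plus), Cox6a1 at chr5:115348909-115349208 (minus) and Cox7a1 at chr7:30183921-30184220 (plus).
Uqcrh: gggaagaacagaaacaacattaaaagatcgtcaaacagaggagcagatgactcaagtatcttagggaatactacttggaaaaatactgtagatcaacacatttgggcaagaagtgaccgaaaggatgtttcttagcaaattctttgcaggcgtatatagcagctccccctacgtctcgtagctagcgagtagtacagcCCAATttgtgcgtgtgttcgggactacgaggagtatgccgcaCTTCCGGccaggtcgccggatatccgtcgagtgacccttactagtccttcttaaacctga
Cox8a: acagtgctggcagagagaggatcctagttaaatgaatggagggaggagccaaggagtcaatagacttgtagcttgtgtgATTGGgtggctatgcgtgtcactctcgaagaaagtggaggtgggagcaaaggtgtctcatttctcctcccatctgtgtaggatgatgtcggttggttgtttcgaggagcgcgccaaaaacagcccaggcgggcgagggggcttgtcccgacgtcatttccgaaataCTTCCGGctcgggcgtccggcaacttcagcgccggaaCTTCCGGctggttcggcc
Atp5b: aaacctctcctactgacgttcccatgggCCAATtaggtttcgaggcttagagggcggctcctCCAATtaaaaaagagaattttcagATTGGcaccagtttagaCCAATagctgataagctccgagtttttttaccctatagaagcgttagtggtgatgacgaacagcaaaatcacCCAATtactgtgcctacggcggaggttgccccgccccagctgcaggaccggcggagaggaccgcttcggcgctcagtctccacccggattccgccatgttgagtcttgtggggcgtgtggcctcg
Cox6a1: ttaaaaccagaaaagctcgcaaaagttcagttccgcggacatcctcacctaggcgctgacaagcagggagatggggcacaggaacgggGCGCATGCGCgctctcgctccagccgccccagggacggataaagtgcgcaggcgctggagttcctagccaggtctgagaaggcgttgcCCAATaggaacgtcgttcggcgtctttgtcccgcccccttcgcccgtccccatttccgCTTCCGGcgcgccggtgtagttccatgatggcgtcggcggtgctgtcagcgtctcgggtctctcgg
Cox7a1: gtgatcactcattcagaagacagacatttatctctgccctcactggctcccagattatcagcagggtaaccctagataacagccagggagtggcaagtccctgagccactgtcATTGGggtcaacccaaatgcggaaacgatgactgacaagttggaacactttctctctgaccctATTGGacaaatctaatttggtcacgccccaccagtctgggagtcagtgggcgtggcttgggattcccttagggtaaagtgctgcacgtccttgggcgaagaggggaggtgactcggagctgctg

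Uqcrh held 1 GABP match and 1 CCAAT match, and Cox8a held 2 GABP matches and 1 CCAAT match. Atp5b held 5 CCAAT matches and none to GABP, NRF1 or YY1. In Cox6a1 the 2 NRF1 matches are 1 palindrome read on both strands, beside 1 GABP and 1 CCAAT match. Cox7a1 had 2 CCAAT matches and none to the 3 respiratory factors. Over the 33 genes that were both tested and had a promoter, the NRF1 letters stood in 7 (21.2%), against 3.05% of all 27025 genes with promoters of this length, and the GABP letters in 12 (36.4%), against 9.93%. A gene counted once if any of its promoters held the letters. The 27025 genes were not filtered by expression, unlike the 33. Promoters on chromosome 18 were left out of the search, for the members as for the 27025 genes. YY1 letters were found in 5 (15.2%, against 7.28%), CCAAT in 18 (54.5%, against 41.1%), the SP1 letters GGGCGG in 12 (36.4%, against 38.2%) and TATAAA in 1 (3.03%, against 15.7%). The letters of NRF1, GABP or YY1 stood in 18 of these 33 genes (54.5%, against 18.6% of all) and in none of the 4 untested genes with a promoter. The promoters of the 33 genes had a median GC content of 56.7%, against 52.7% for all, taking 1 promoter per gene. The 7 genes with NRF1 letters (Atp5g2, Atp5k, Atp5l, Cox6a1, Sdhb, Uqcr11 and Uqcrc1) had log2 fold changes between ages of -0.49 to 0.25, 4 above and 3 below 0. A match of letters is a description of the sequence and not a measured site.

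Most of these genes were among the more abundant transcripts of liver. Of the 48 genes, 39 had a mean level of 100 TPM or more over all libraries, and the other 9 were below 20 TPM. The members' median TPM stood at the 97.1 percentile of the genes tested. In complex II the subunits lay within 1.68-fold of each other, between Sdhd at 198 TPM and Sdhb at 331.7 TPM. Levels ran wider in complex III, between Uqcrc2, a core protein, at 126 TPM and Uqcrq, a small accessory subunit, at 1014 TPM (8.06-fold), and in complex IV, between Cox7a2l at 117 TPM and Cox6a1 at 853 TPM (7.26-fold). In complex V the subunit genes spanned 4.39-fold, between Atp5f1, the b subunit of the peripheral stalk, at 184 TPM and Atp5b, the catalytic beta subunit of F1, at 808 TPM. The genes Atp5s and Atp5sl carry the ATP synthase name but are not subunits of the enzyme, and they stood at 2.02 and 15.4 TPM.

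**Figure D1:**
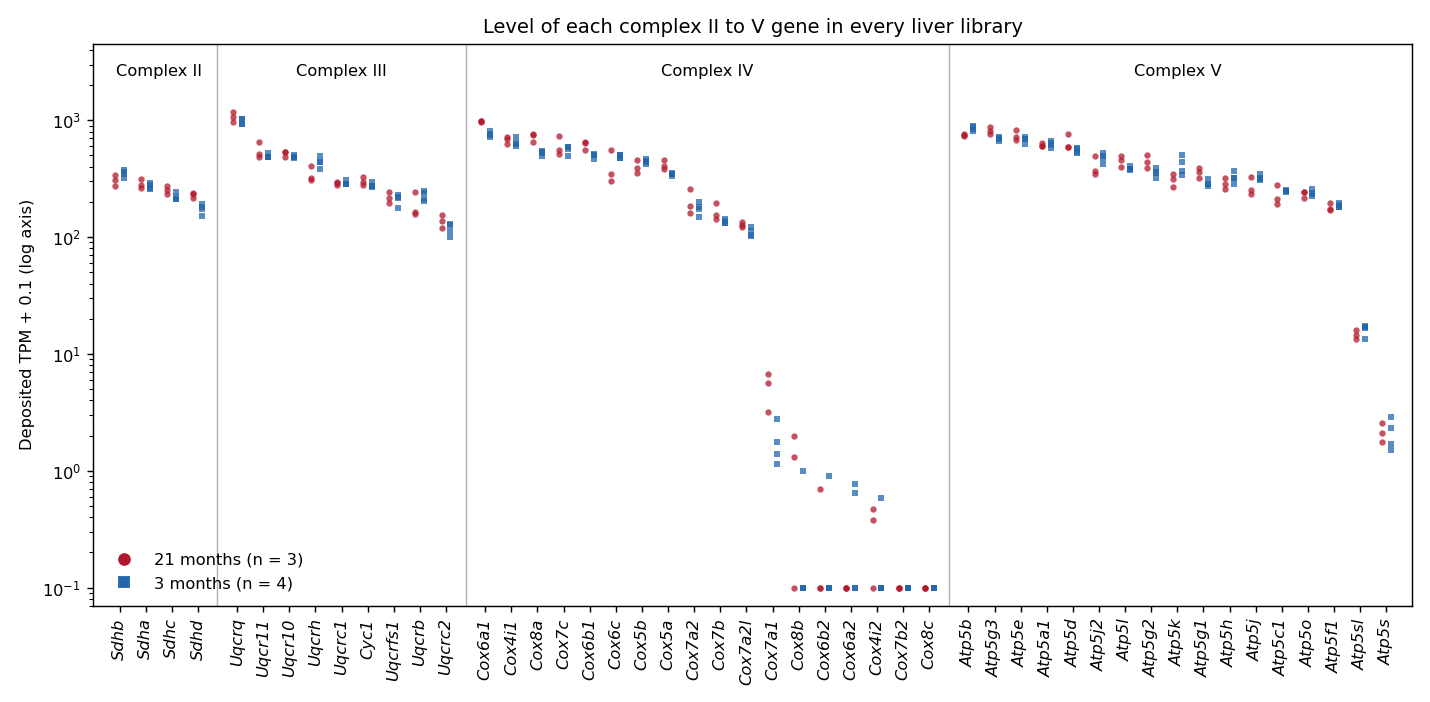
Level of each gene in TPM (log axis), grouped by complex, after adding 0.1, with 1 point per library: circles for 21-month livers, to the left, and squares for 3-month livers. Subunit genes used in liver lie between about 100 and 1000 TPM, while the muscle, lung and testis isoforms lie at or near 0, and at most genes the points of the ages run into each other.

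The tissue isoforms of complex IV separated sharply. Liver libraries carried Cox4i1, Cox6a1, Cox6b1, Cox7a2, Cox7b and Cox8a, while the lung, muscle or testis forms Cox4i2, Cox6a2, Cox6b2, Cox7b2, Cox8b and Cox8c had 0 to 2 counts in every library. Cox7b2 and Cox8c had 0 counts in all 7 libraries, which allows levels of up to 0.296 to 0.419 CPM in 21-month livers and 0.257 to 0.607 CPM in 3-month livers (3 counts per library, counting error only). Of the summed TPM of Cox7a1 and Cox7a2, Cox7a1 gave 1.64% to 3.35% in 21-month livers and 0.52% to 1.52% in 3-month livers; each of the other minor forms gave at most 0.25% of its pair at 21 months and 0.171% at 3 months. The c ring of ATP synthase, the membrane rotor, is encoded by 3 genes whose mature proteins are the same: Atp5g3 stood highest at 747 TPM, then Atp5g2 at 394 TPM and Atp5g1 at 318 TPM.

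Between the ages, 41 of the 48 genes had enough counts for a test, and 3 of them passed it. At an adjusted p under 0.05 (edgeR's quasi-likelihood test, Benjamini-Hochberg over all 11251 genes tested), Cox8a of complex IV rose, and Uqcrh of complex III and Atp5b of complex V fell. That is 7.32% of the members, against 11.3% of all genes tested; by direction the background was 5.47% higher and 5.86% lower. At an unadjusted p under 0.05 the members numbered 11 (26.8%), 3 higher and 8 lower, against 26.6% of all genes. The libraries of the ages did not overlap in CPM for 7 of 41 members (17.1%), against 24.2% of all genes (11.3% higher, 12.8% lower): Sdhd, Cox6a1 and Cox8a were higher at 21 months, and Uqcrh, Atp5b, Atp5a1 and Atp5k lower. With the replicate number as a block, which left out 3-month replicate 4, Cox8a alone among the members passed.

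The fitted differences were small and their errors narrow. Log2 fold changes ran between -0.49 and 0.35 with a median of -0.02 (all genes: -0.0015), 19 above and 22 below 0, and 30 of 41 members were within 1.2-fold. This split moved most without 21-month replicate 1, where 11 of 41 members were fitted above 0, with a median of -0.111. Without any other single library it ran from 15 of 40 (3-month replicate 2, median -0.0632) to 23 of 41 (21-month replicate 3, median 0.0658). The fit to log2(TPM + 1) gave 25 of 41 and a median of 0.0784. The 95% interval of the fold change lay inside 1.5-fold either way for 34 of 41 members (82.9%), against 49.4% of all genes, with a median standard error of 0.111, against 0.158 (log2). The 7 members whose interval reached past 1.5-fold were Uqcrh, Uqcrb, Cox6c, Atp5j2, Atp5k, Atp5j and Atp5s. In a fit to the TPM values, which moved the median of all genes by 0.10 (log2) and in which 74.9% of all calls were higher against 48.3% on counts, 3 members passed and all were higher: Cox8a, Cox6a1 and Sdhd.

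**Figure D2:**
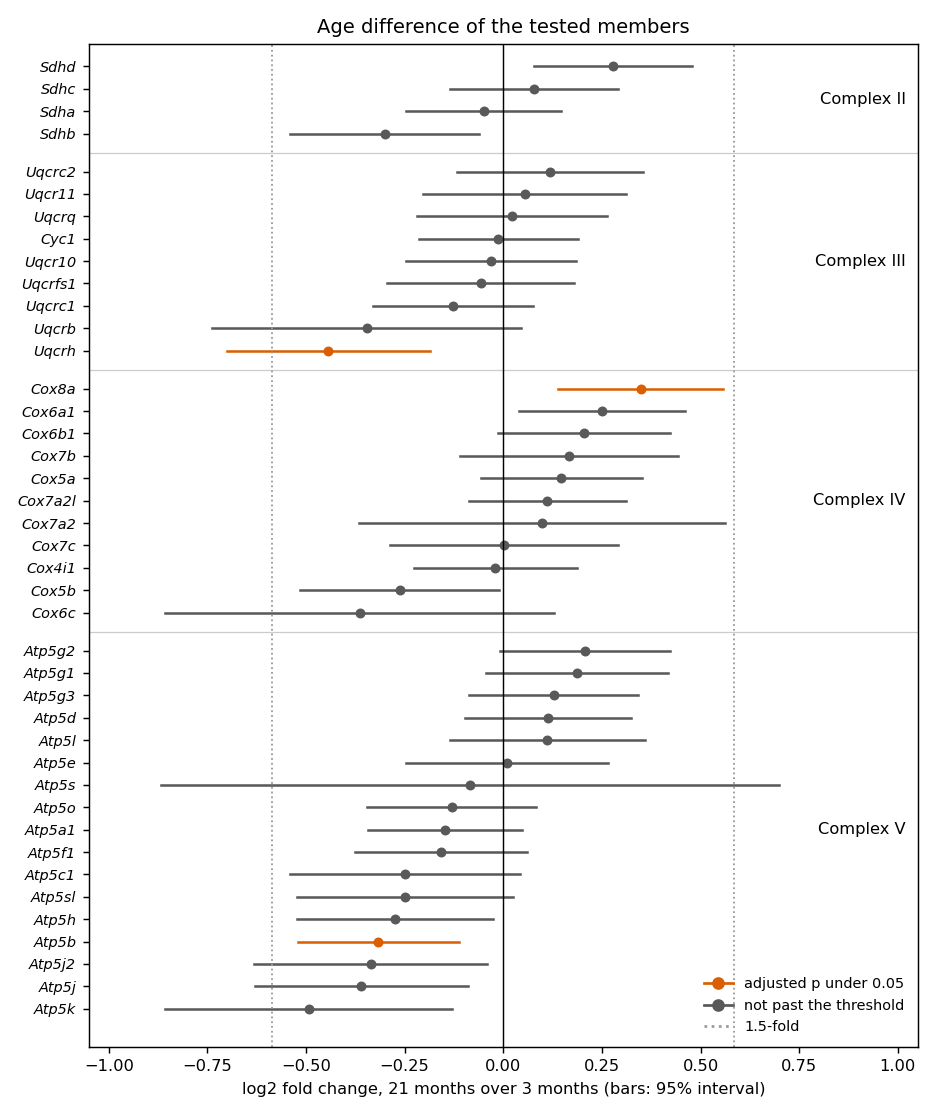
Log2 fold change of each tested gene, 21 months over 3 months, with its 95% interval from edgeR, grouped by complex. Orange marks the 3 genes past the threshold and dotted lines mark 1.5-fold. Most intervals cross 0; Cox8a at 0.35 is the highest point, and Atp5k at -0.49 is the lowest but did not pass.

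Summed by complex, the CPM of the subunit and named genes differed between ages by less than 10%. Complex V summed to 3022 ± 249 CPM in 21-month livers and 3306 ± 160 CPM in 3-month livers (SD, n = 3 and n = 4; ratio 0.914), and complex IV to 1403 ± 175 and 1331 ± 83.6 CPM (ratio 1.054). Complex III gave 1214 ± 149 CPM at 21 months and 1271 ± 71.5 CPM at 3 months (ratio 0.956), and complex II 817 ± 46.2 and 835 ± 33.6 CPM (ratio 0.978). In TPM the sum for complex IV was 5312 ± 476 at 21 months and 4693 ± 134 at 3 months, and for complex V 6743 ± 431 and 6670 ± 247. Complex III summed to 3614 ± 356 TPM at 21 months and 3529 ± 138 TPM at 3 months, and complex II to 1077 ± 33.9 and 1020 ± 58.5 TPM, so that in complexes II, III and V the order of the ages turned with the scale. The sums were not tested.

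In complex II none of the 4 genes passed the test (0 of 4; by edgeR, 2 had an unadjusted p under 0.05), and the catalytic and membrane subunits showed no shared direction. Sdha, the flavoprotein that oxidizes succinate, had 379, 366 and 419 CPM in 21-month replicates 1, 2 and 3, against 402, 385, 401 and 418 CPM in 3-month replicates 1 to 4. The ages overlapped fully, with a log2 fold change of -0.05 ± 0.09 (SE) and a 95% interval of -0.25 to 0.15. Sdhb, the iron-sulfur subunit that hands electrons on, stood at 177, 131 and 150.1 CPM at 21 months, against 183, 172, 189 and 209 CPM at 3 months. Only 21-month replicate 1 reached into the 3-month range, and the difference of -0.30 ± 0.11 missed the threshold (adjusted p = 0.0977).

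The membrane anchors of complex II, which hold the heme and bind ubiquinone, were fitted on the other side of 0. Sdhd stood at 148.0, 137 and 125 CPM at 21 months, against 118, 110.2, 118 and 106 CPM at 3 months. All 3 of the 21-month livers lay above all 4 of the 3-month livers, but the log2 fold change of 0.28 ± 0.09 (95% interval 0.08 to 0.48) missed the threshold with an adjusted p of 0.0687. Sdhc stood at 157, 135 and 125 CPM at 21 months, against 132, 122, 136 and 137 CPM at 3 months. Here the ages overlapped, and the log2 fold change was 0.08 ± 0.10 (adjusted p = 0.676), or -0.02 without 21-month replicate 1.

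In complex III, Uqcrh fell, and the other 8 genes did not pass. Uqcrh encodes the hinge protein, an acidic subunit that helps cytochrome c1 dock with cytochrome c. Its levels in 21-month replicates 1 to 3 were 102, 75.8 and 74.1 CPM, against 105, 108, 122 and 124 CPM in 3-month replicates 1 to 4. No library of one age reached the other, although 21-month replicate 1 came close to 3-month replicate 1. The means were 84.1 ± 15.8 CPM at 21 months and 115 ± 9.64 CPM at 3 months, a log2 fold change of -0.44 ± 0.12 (95% interval -0.70 to -0.19, 1.36-fold lower; edgeR adjusted p = 0.0287). With the replicate block the change was -0.42 with an adjusted p of 0.052; the call was also lost without 3-month replicate 3 (0.0881) or 4 (0.0853) and without 21-month replicate 2 (0.0981) or 3 (0.162). It was lost on the TPM scale as well (adjusted p = 0.0744), and with a measure of fragment or read length as a covariate, where the log2 fold change was -0.30 (adjusted p = 0.304). That measure was 35.4, 30.9 and 21.4 bases in the 21-month libraries, against 34.4 to 38.8 bases at 3 months. It is partly confounded with age, so this fit cannot fully part the 2, here or for the genes below.

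The redox and core subunits of complex III lay close to 0. Cyc1, cytochrome c1, stood at 173, 175 and 152 CPM at 21 months, against 174, 154, 169 and 175 CPM at 3 months. Uqcrfs1, the Rieske iron-sulfur protein, stood at 157, 128 and 118 CPM at 21 months, against 155, 134, 142 and 129 CPM at 3 months. In both genes the ages overlapped, and the largest difference among these 2 and the core proteins Uqcrc1 and Uqcrc2 was 1.09-fold. The median log2 fold change of these 4 genes was -0.03, and 0 of 4 passed (0 also at an unadjusted p under 0.05, edgeR).

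Among the accessory subunits, Uqcrq, the highest gene of the complex, stood at 271, 226 and 209 CPM at 21 months, against 233, 204, 227 and 264 CPM at 3 months, with a log2 fold change of 0.02 (adjusted p = 0.933). Uqcr11, next in TPM at 520.0, had a log2 fold change of 0.05 (adjusted p = 0.829), and Uqcr10 one of -0.03. Uqcrb, the ubiquinone-binding protein, stood at 56.8, 33.7 and 36.3 CPM at 21 months, against 51.5, 47.0, 54.0 and 63.9 CPM at 3 months. Its 21-month livers were split, with replicate 1 inside the 3-month range and replicates 2 and 3 below it, and the log2 fold change was -0.35 with a wide interval of -0.74 to 0.04.

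In complex IV, Cox8a rose and none of the other 10 genes tested passed. Cox8a encodes the form of the small subunit 8 that most tissues use. Its 21-month livers had 192, 174 and 156 CPM in replicates 1, 2 and 3, against 137, 131, 131 and 149 CPM in 3-month replicates 1 to 4. Every 21-month liver lay above every 3-month liver. The means were 174 ± 18.1 CPM at 21 months and 137 ± 8.42 CPM at 3 months, a log2 fold change of 0.35 ± 0.10 (95% interval 0.14 to 0.56, 1.27-fold higher; edgeR adjusted p = 0.0344). It passed with the replicate block (0.39, adjusted p = 0.0263) and on the TPM scale (0.45, adjusted p = 0.0096). The call was lost without 3-month replicate 1 (0.0778), 2 (0.0929) or 3 (0.0997), without 21-month replicate 1 (0.0717), and with the length covariate (0.067).

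**Figure D3:**
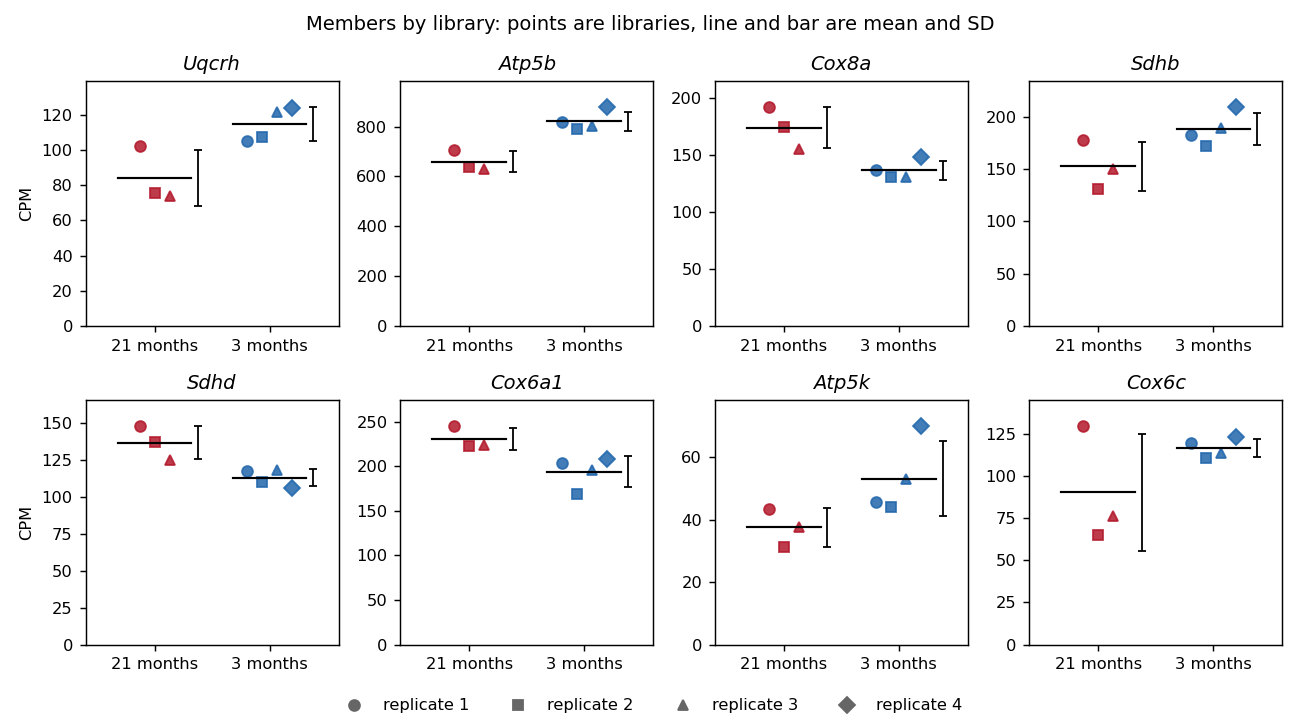
CPM in each library of 8 genes of the 4 complexes, with 1 point per library, a line at the mean and a bar for the SD, 21 months left of 3 months. Uqcrh, Atp5b and Cox8a passed the test; in Cox6c the 21-month libraries are split between 130 CPM in replicate 1 and 65.1 and 76.3 CPM in replicates 2 and 3.

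Cox6a1, the liver form of subunit 6A, stood at 246, 223 and 224 CPM at 21 months, against 204, 169, 196 and 209 CPM at 3 months. Here too the ages did not overlap, but the log2 fold change of 0.25 ± 0.10 had an adjusted p of 0.114; on the TPM scale it passed (0.36, adjusted p = 0.0231). Cox7a2, the liver form of subunit 7A, stood at 93.2, 53.1 and 61.7 CPM at 21 months, against 77.6, 51.0, 62.9 and 69.8 CPM at 3 months. Replicate 1 of the 21-month livers lay above all 3-month livers and the other two within their range. The log2 fold change was 0.10 ± 0.21 and turned to -0.18 without that library. Cox7a2l, a relative of subunit 7A, stood at 66.4, 59.5 and 66.8 CPM at 21 months, against 59.5, 60.9, 57.4 and 59.9 CPM at 3 months (0.11 ± 0.09, adjusted p = 0.486).

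Of the forms used in most tissues, Cox4i1, which carries regulatory binding sites for adenine nucleotides, stood at 225, 214 and 190 CPM at 21 months, against 208, 196, 223 and 224 CPM at 3 months (-0.02, adjusted p = 0.928). Cox6b1, which faces cytochrome c on the outer side of the membrane, stood at 153, 139 and 123 CPM at 21 months, against 118, 113, 115 and 134 CPM at 3 months (0.20, adjusted p = 0.22). Both overlapped between ages. The other genes of the complex differed by log2 values of -0.36 for Cox6c, -0.26 for Cox5b, 0.00 for Cox7c, 0.15 for Cox5a and 0.17 for Cox7b. In all, 8 of the 11 genes tested in complex IV were fitted above 0, with a median of 0.11, against 6 of 17 in complex V, with a median of -0.15. Without 21-month replicate 1 these were 5 of 11, with a median of -0.02, and 5 of 17, with a median of -0.20, so that 1 library turned the direction of the complex IV median.

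Cox7a1, the heart and muscle form of subunit 7A, was too low for the test over all genes and was singled out after its values were seen. It had 11, 6 and 4 counts in 21-month livers, against 1, 3, 1 and 3 counts in 3-month livers. In TPM this was 6.65, 5.55 and 3.06 at 21 months, against 1.04, 1.66, 1.28 and 2.68 at 3 months. All 21-month livers were above all 3-month livers in TPM (exact two-sided permutation test, p = 0.0286, the smallest that 35 splits can give), but 1 pair crossed in CPM (p = 0.0571, the same exact test). The scaled sums, 21 counts against 8, had a ratio of 2.88 (95% exact binomial interval 1.23 to 7.53, counting error only). In the edgeR fit without a filter on low counts the adjusted p was 0.203. The 7 markers of skeletal and heart muscle summed to 0 TPM in every 21-month liver and to 0 to 0.41 TPM in 3-month livers, with 4 of the 7 at 0 in all libraries. The 5 adipocyte markers summed to 7.94, 5.11 and 6.5 TPM in 21-month replicates 1 to 3, with Ucp1 at 0 in all libraries. In 3-month replicates 1 to 4 they summed to 11.29, 0.8, 0.47 and 0.65 TPM. The part of such cells in the Cox7a1 values was not tested. Cox8b, the muscle form of subunit 8, had 4 counts over the 21-month livers and 1 over the 3-month livers (ratio 4.39, interval 0.435 to 216), which does not separate the ages at this depth.

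In complex V, Atp5b fell and the other 16 genes did not pass, although all 5 genes with an unadjusted p under 0.05 were lower at 21 months. Atp5b encodes the beta subunit of the F1 head, where ATP is formed. Its 21-month livers had 706, 640 and 631 CPM in replicates 1, 2 and 3, against 817, 788, 800 and 877 CPM in 3-month replicates 1 to 4. The ages did not overlap. The means were 659 ± 41.1 CPM at 21 months and 821 ± 39.5 CPM at 3 months, a log2 fold change of -0.32 ± 0.10 (95% interval -0.52 to -0.11, 1.25-fold lower; edgeR adjusted p = 0.0444). The call did not hold with the replicate block (-0.29, adjusted p = 0.0766), on the TPM scale (-0.19, 0.183) or with the length covariate (0.284). It was also lost with other size factors (0.0535), with library-size scaling (0.0882) and with rows of ribosomal RNA and Lars2 removed (0.0544). Leaving out any 1 of the 3-month replicates (0.0781 to 0.0958) or 21-month replicate 2 (0.131) or 3 (0.195) lost it as well. It passed under 4 of the 17 alternative settings, 1 of them without 21-month replicate 1 (0.0215).

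Atp5a1, the alpha subunit that alternates with beta around the head, stood at 726, 708 and 674 CPM at 21 months, against 806, 779, 748 and 781 CPM at 3 months. These ages did not overlap either, yet the log2 fold change was -0.15 ± 0.09 (adjusted p = 0.329). Of the central stalk and its neighbours, Atp5c1 (gamma) was at -0.25, Atp5d (delta) at 0.11 and Atp5e (epsilon) at 0.01. The 5 genes of the head summed to 2009, 1896 and 1778 CPM at 21 months, against 2175, 2063, 2061 and 2236 CPM at 3 months, without overlap; their TPM sums, 2797 to 3074 at 21 months and 2897 to 3033 at 3 months, overlapped.

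The c ring genes were fitted above 0 and the peripheral stalk genes below it, none past the threshold. Atp5g1 stood at 149, 127 and 115 CPM at 21 months, against 118, 102, 117 and 123 CPM at 3 months (0.19 ± 0.11, adjusted p = 0.293). Atp5g2 stood at 134, 141 and 113 CPM at 21 months, against 107, 114, 106 and 122 CPM at 3 months (0.21 ± 0.10, adjusted p = 0.208). Atp5g3, the highest of the 3, stood at 283, 238 and 232 CPM at 21 months, against 231, 214, 224 and 251 CPM at 3 months (0.13 ± 0.10, adjusted p = 0.46). In each gene 21-month replicate 3 lay inside the 3-month range. Without 21-month replicate 1 the log2 fold changes were 0.08 for Atp5g1, 0.18 for Atp5g2 and 0.03 for Atp5g3. Summed, the ring stood at 566, 507 and 460 CPM at 21 months, against 455, 429, 446 and 496 CPM at 3 months.

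The peripheral stalk keeps the head from turning with the ring. Its 4 genes (Atp5f1, Atp5h, Atp5j and Atp5o) had log2 fold changes of -0.36 to -0.13 with a median of -0.22, of which 0 passed and 2 had an unadjusted p under 0.05 (edgeR). Leaving out 1 library at a time moved Atp5o as near to 0 as -0.04 and Atp5j as far as -0.56. Atp5j, coupling factor 6, stood at 118, 83.7 and 79.8 CPM at 21 months, against 121, 111, 123 and 128 CPM at 3 months. Replicate 1 of the 21-month livers lay among the 3-month livers and the other two below all of them (-0.36 ± 0.13, adjusted p = 0.0796). Of the small membrane subunits that help ATP synthase form rows of dimers, Atp5k (e) stood at 43.6, 31.3 and 37.8 CPM at 21 months, against 45.6, 44.1, 53.0 and 70.1 CPM at 3 months. It had the lowest fold change of all members, -0.49 ± 0.17 (95% interval -0.86 to -0.13), without overlap and with an adjusted p of 0.0777. Atp5j2 (f) was at -0.34 and Atp5l (g) at 0.11, while Atp5s and Atp5sl were at -0.08 and -0.25.

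Within the 21-month livers the genes moved together by library. Replicate 1 was the highest of its age for 33 of 41 members (80.5%, against 38.6% of all genes) and the lowest for 0, while replicate 3 was the lowest for 25 and replicate 2 for 16. Replicate 1 over the mean of replicates 2 and 3 had a median log2 ratio of 0.304 for the members, against -0.0022 for all genes, and passed 1.2-fold for 23 of 41 members (56.1%, against 21.6%). The ratio was 1.83-fold for Cox6c, 1.62-fold for Cox7a2 and 1.61-fold for Uqcrb, and below 1 for Sdha, Atp5sl and Atp5d. Among the 3-month livers, replicate 4 was the highest for 31 members (75.6%, against 29% of all genes) and replicate 2 the lowest for 28 (68.3%, against 22.7%). The coefficient of variation was larger at 21 months for 36 of 41 members (87.8%, against 55.3% of all genes), with medians of 13.5% at 21 months and 7.45% at 3 months.

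**Figure D4:**
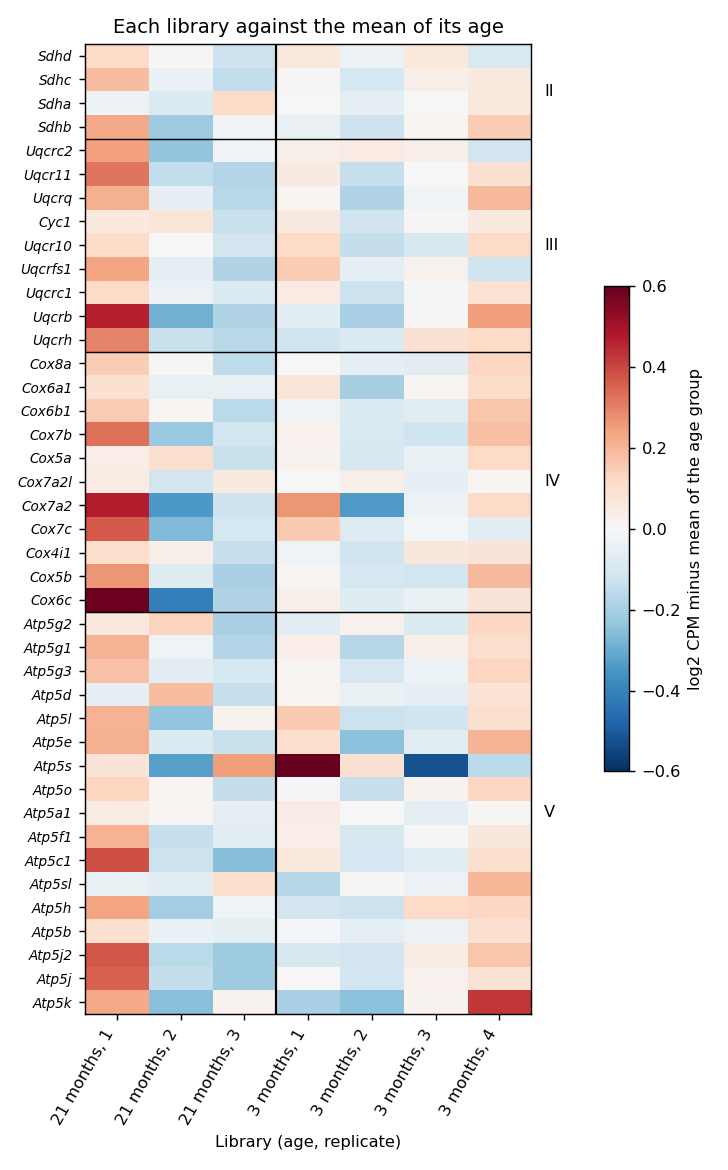
Heat map of the log2 CPM of each tested gene (rows, by complex) in each library (columns, 21 months left of 3 months) minus the gene's mean over the libraries of that age; the colour scale ends at 0.6 either way. The column of 21-month replicate 1 is mostly above those of replicates 2 and 3, across all complexes.

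Within the 21-month livers this library pattern went with transcript length, and at both ages with markers of macrophages and endothelial cells. The members are short, with a median of 754 bases against 2812 for all genes tested. Over all genes, the median log2 ratio of 21-month replicate 1 to replicates 2 and 3 was 0.334 for transcripts of up to 500 bases, 0.227 for 501 to 700, 0.234 for 701 to 1000, 0.136 for 1001 to 1500, 0.0509 for 1501 to 2500 and -0.0852 above 2500. The members gave 0.33, 0.264, 0.304, 0.294 and 0.152 in the first 5 classes, with 7, 13, 5, 10 and 5 members, and -0.052 for Sdha, their 1 member above 2500 bases. The shortfall of the authors' effective length below the full length, which follows fragment or read length, was 35.4, 30.9 and 21.4 bases in 21-month replicates 1 to 3, against 36.9, 38.8, 35.7 and 34.4 bases in 3-month replicates 1 to 4. At 21 months it was largest in the library where the members were mostly highest. At 3 months it was smallest in replicate 4, where they were mostly highest, and largest in replicate 2, where they were mostly lowest. Ratios by length class were not computed for the 3-month livers. Markers of macrophages and endothelial cells also moved with the pattern, in the other direction. The 6 macrophage markers summed to 106, 337 and 247 CPM in 21-month replicates 1 to 3, against 194, 314, 231 and 186 CPM in 3-month replicates 1 to 4, and the 4 endothelial markers to 46.4, 108 and 105 CPM, against 108, 132, 118.5 and 71.9 CPM. In 21-month replicate 1, where the members were mostly highest, 6 of 6 macrophage and 3 of 4 endothelial markers were the lowest of that age. In 3-month replicate 2, where the members were mostly lowest, 6 of 6 and 4 of 4 were the highest, and in 3-month replicate 4, where the members were mostly highest, 4 of 6 and 3 of 4 were the lowest. The 6 hepatocyte markers, mostly Alb, summed to 67160, 67760 and 70780 CPM in 21-month replicates 1 to 3. In 3-month replicates 1 to 4 they summed to 51720, 62720, 57810 and 48470 CPM. In 21-month replicate 1, 4 of the 6 were the lowest of that age and 0 the highest. The 4 stellate markers summed to 122.7, 144.5 and 116.9 CPM at 21 months, against 97.45, 93.35, 79.09 and 79.04 CPM at 3 months. The parts of length and of these cell types in the library pattern were not tested. The members' log2 fold changes between ages themselves showed no order by length (Spearman's rho = 0.009 across 41 genes, which are not independent). Over all genes the short classes were lower at 21 months. Their median was -0.117 up to 500 bases and -0.102 for 501 to 700, with 14.6% and 10.8% called lower. In the longer classes 5.18% to 6.9% were called lower. The members' medians in the 2 short classes were 0.00167 and 0.112. Shares of all genes given above were not matched by length.

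**Figure D5:**
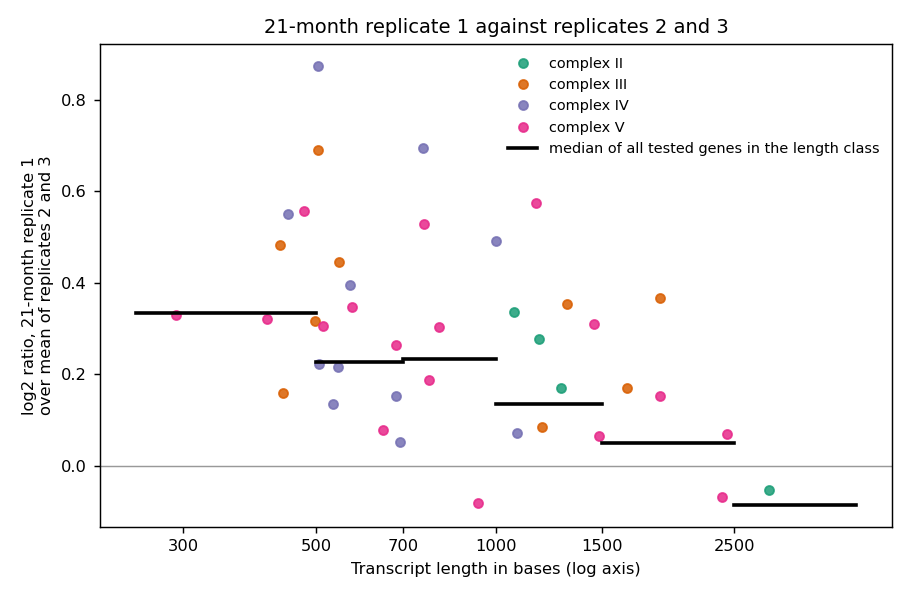
Log2 ratio of 21-month replicate 1 to the mean of 21-month replicates 2 and 3 (y) against transcript length in bases (x, log axis), for the members and as medians of all tested genes by length class. Short transcripts lie above 0 in both, near 0.33 for those of up to 500 bases.

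The count of calls turned on this library. Without 21-month replicate 1, 10 of 41 members passed and all were lower at 21 months, where 7.91% of 11379 genes were called lower and 6.52% higher. They were Cox6c (-0.72, edgeR adjusted p = 0.000293), Uqcrb (-0.62), Uqcrh (-0.61), Atp5j (-0.56), Atp5j2 (-0.55), Atp5c1 (-0.47), Sdhb (-0.42), Cox5b (-0.41), Atp5h (-0.40) and Atp5b (-0.37), spread over complexes II, III, IV and V. Cox8a then had a log2 fold change of 0.27 (adjusted p = 0.0717). In this fit the measure of fragment or read length separated the ages fully. It was 30.9 and 21.4 bases in 21-month replicates 2 and 3, against 34.4 to 38.8 bases at 3 months. Its part in these 10 calls was not tested. Without any other single library 0 or 1 members passed.

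Among the genes that build, feed and regulate the complexes, 4 of 84 tested passed (4.76%, against 11.3% of all genes). Of 33 tested assembly factors, 1 was higher and 1 lower, with a median log2 fold change of -0.02. Cox17, a copper chaperone for complex IV, fell to 11.3 ± 1.86 CPM in 21-month livers, against 17.0 ± 2.21 CPM in 3-month livers (-0.57 ± 0.16, edgeR adjusted p = 0.0301). Cox19, another protein of copper delivery to complex IV, rose to 18.2 ± 0.58 CPM at 21 months, against 12.6 ± 2.59 CPM at 3 months (0.56 ± 0.16, adjusted p = 0.0375). Each of these calls was lost with the length covariate (0.0731 for Cox17, 0.268 for Cox19) and without some single libraries, with adjusted p values of up to 0.101 for Cox17 and 0.115 for Cox19. Cox10, which makes heme for complex IV, was at -0.42 (adjusted p = 0.0617), and Lrpprc, which stabilizes mitochondrial mRNAs, at -0.27 (0.0702).

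Of 16 tested regulators of nuclear respiratory genes, 1 was higher and 1 lower, with a median of -0.13. Pprc1, a coactivator of the PGC-1 family, fell to 13.4 ± 1.47 CPM at 21 months, against 25.7 ± 3.45 CPM at 3 months (-0.94 ± 0.14, 1.92-fold lower, edgeR adjusted p = 0.000944), and passed under all 17 alternative settings. Ppargc1a, which encodes PGC-1alpha, the best known member of that family, rose to 5.94 ± 1.4 CPM at 21 months, against 3.21 ± 0.60 CPM at 3 months (0.85 ± 0.24, adjusted p = 0.0348), and passed under 6 of the 17. The call of Ppargc1a was lost with DESeq2 (0.0538), with the length covariate (0.177) and without any single library other than 21-month replicate 1 (0.0579 to 0.116). Nrf1 itself was at -0.44 (adjusted p = 0.156), and Polrmt, the mitochondrial RNA polymerase, at -0.33 (0.112).

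None of the other genes around the complexes passed: 0 of 13 electron carriers and their synthesis enzymes, 0 of 8 partners of ATP synthase and 0 of 14 citric acid cycle enzymes. At an unadjusted p under 0.05 (edgeR) these lists held 3, 2 and 1 genes, and their median log2 fold changes were -0.03, -0.02 and 0.04. The closest to the threshold were Suclg2, a succinyl-CoA ligase subunit (0.33, adjusted p = 0.0592), Coq2, an enzyme of ubiquinone synthesis (0.34, 0.0689), and Etfb, a subunit of the flavoprotein that carries electrons from fatty acid oxidation (-0.32, 0.0811). Atpif1, the inhibitor of ATP synthase, was at -0.47 (0.159), and Cs, citrate synthase, at 0.16 (0.26). On the TPM scale Coq2, Suclg2 and Adck3 passed.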

How the data were processed

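RNA was measured in 7 liver samples from polyA-enriched, strand-specific libraries, per the labels' protocols. The submitters' processing notes name TopHat, RSEM, edgeR and build mm9; neither versions nor roles were found. The authors deposited expected counts per gene (estimated counts, 86.5% of them whole numbers) and TPM values (relative to library and transcript length); the FPKM values deposited beside them were not used. Depth is the total expected count per library. Reads were not counted by molecule, so intervals and floors cover counting error only.

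Expected counts were rounded and fitted with edgeR 4.0.16 (R 4.3.3; TMM scaling, robust quasi-likelihood test, 21 months over 3 months) after a filter (minimum count 10, minimum total 15), with Benjamini-Hochberg adjustment over 11251 genes at 0.05. The fit was tested on simulated data. Levels between genes used the deposited TPM. Alternatives were limma 3.58.1 (voom, and log2 of TPM plus 1 or 0.1), DESeq2 1.42.0, other scalings and filters, an effective-length covariate, a replicate block and leaving out each library. The main fit did not pair the samples, and the labels do not say that the numbers mark pairs. Same-numbered samples of the ages deviated together weakly (correlations 0.107, 0.174 and 0.104), so the number was tried as a block in an alternative fit. Pairs of different number ran from -0.222 to 0.159, the highest being 21-month replicate 1 with 3-month replicate 4. That value is above 0.107 and 0.104, so these correlations do not establish a pairing. No 2 libraries of the same age agreed within sampling noise. Counts of 5 members (Atp5f1, Atp5j, Cox7c, Uqcr10 and Uqcrq) were fractional in 5 or more libraries, so reads were shared with other genes there and their levels are less certain.

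Genes named were those past the threshold, the 2 highest of each complex in TPM, all Sdh genes, the tissue isoforms and up to 4 genes of each pathway list with the smallest adjusted p; other members named beyond these were chosen after their values were seen. Members and lists were chosen with earlier results of these data known. Drawings were made with matplotlib 3.10.9.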

Additional observations from a re-analysis of the deposited data

Results flagged for a closer look

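Uqcrc2, a core protein of complex III, stood at 103.7 CPM in 3-month replicate 4, far below the other 3-month livers at 115, 116 and 115 CPM; about 1 in 20 groups of 4 would show such a gap by chance, and 46 were checked. The isoforms Cox4i2 (0.1825 CPM in 3-month replicate 1), Cox6b2 (0.1825 CPM in 3-month replicate 1) and Cox8b (0.1623 CPM in 3-month replicate 4) each had 1 count in that library and 0 in the other 3-month livers. With 3 values at 0 any single count stands apart in this check, so these carry no information.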

How the results depend on the processing

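With the length covariate 332 genes, 0 members and 1 gene of the pathway lists were called, against 1274, 3 and 4. This covariate was partly confounded with age. With the replicate block 1 member was called. Leaving out 1 library at a time gave 580 to 1642 genes, 0 to 10 members and 1 to 11 list genes. Other settings gave 2 or 3 members and 3 to 6 list genes; on the TPM scale the members called were Cox8a, Cox6a1 and Sdhd. Of the 41 members, 27 kept their sign in every setting. The 14 others were not called in any setting. On log2(TPM + 1) and log2(TPM + 0.1), the log2 fold change was above 0 for Atp5s (0.0401 and 0.0664), Cox4i1 (0.0889 and 0.089), Cyc1 (0.103 and 0.104), Sdha (0.0721 and 0.0724), Uqcr10 (0.0716 and 0.0718) and Uqcrfs1 (0.0533 and 0.0536). With the length covariate it was above 0 for Cox4i1 (0.0586), Cyc1 (0.057), Uqcr10 (0.0366) and Uqcrfs1 (0.1235). With library-size scaling it was 0.0073 for Cox4i1, 0.0175 for Cyc1 and 0.00081 for Uqcr10; without rows of ribosomal RNA and Lars2 it was 0.0057 for Cyc1. With the replicate block it was 0.0036 for Cox4i1, 0.0045 for Cyc1, 0.0082 for Uqcr10 and -0.0474 for Cox7c. Cox7c was also below 0 without the filter on low counts (-0.00064) and with voom (-0.0202). Leaving out 1 library gave ranges that cross 0 for Atp5e (-0.109 to 0.0935), Atp5s (-0.203 to 0.0988), Cox4i1 (-0.0748 to 0.0658), Cox7a2 (-0.177 to 0.274), Cox7b (-0.0213 to 0.29), Cox7c (-0.209 to 0.144), Cyc1 (-0.0516 to 0.0694), Sdha (-0.089 to 0.0078), Sdhc (-0.0238 to 0.168), Uqcr10 (-0.0886 to 0.0422), Uqcr11 (-0.129 to 0.162), Uqcrc2 (-0.0175 to 0.243), Uqcrfs1 (-0.187 to 0.0492) and Uqcrq (-0.0936 to 0.121). The cause was not tested. Depth limited the muscle and testis isoforms, which had 0 to 11 counts in a library.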
